A study of Mus musculus with 17 samples.

Results

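Heat shock proteins and J-domain proteins are the chaperones that bind unfolded or aggregation-prone proteins. The genes were chosen by symbol, as those starting with Hspa, Hspb, Hspd, Hspe, Hsph, Dnaja, Dnajb or Dnajc and a number, or with Hsp90a. The rule gave 71 genes of the 24498 in the count table, and all 71 were protein-coding genes of the GENCODE M21 annotation of GRCm38, spread over 19 chromosomes. RNA was read from slices of dorsal hippocampus in 17 libraries of 6 groups. The groups were male wild type (WT) and male Acss2 knockout (KO) mice injected with PBS, male WT and male KO mice injected with tau (Tau) that had been extracted from cortex of patients with Alzheimer's disease, and female WT and female KO mice injected with Tau, all injected at 6 months of age. Each group had 3 libraries except female WT Tau, which had 2, and no female mouse received PBS. WT and KO animals came from separate homozygous crosses of F1 offspring of heterozygous cages. The sample labels state perfusion with paraformaldehyde before dissection, which the paper describes for histology and not for RNA.

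HSP70 proteins hold and release client proteins by hydrolysing ATP. J-domain proteins bring clients to HSP70 and switch on its ATPase, and HSP110 proteins, such as Hsph1, exchange its nucleotide. HSP90 proteins act later on kinases and receptors, and small heat shock proteins hold clients without ATP. In neurons Hspa8, with the J-domain proteins Dnajc5 and Dnajc6, serves synaptic vesicles and the uncoating of clathrin. In the cytosol the factor Hsf1 drives such genes through heat shock elements, and in the endoplasmic reticulum (ER) the unfolded protein response drives Hspa5 and its partners through ER stress elements.

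Acss2, the deleted gene, ran from 44.0 to 54.6 CPM (counts scaled to a common library total) in the WT libraries and from 3.07 to 8.81 CPM in the KO libraries, in which the gene was deleted in the whole animal. Xist had 0 to 2 counts in male libraries and 12161 to 19209 in female ones, so every library matched its labelled sex. Total counts ran from 14183131 to 22463635. Markers of hippocampal neurons were present in every library, with Prox1 of granule cells at 8.83 to 61.4 CPM and Fibcd1 of CA1 at 19.8 to 257 CPM. The library labelled male KO Tau 711 stood apart from the other males. Its summed astrocyte markers reached 8120 CPM, against 4355 to 5195 CPM in the other 11 male libraries and 8651 to 9807 CPM in the 5 female ones. The library labelled male KO PBS 752 stood apart in striatal markers, at 444 CPM, and neocortical markers, at 916 CPM. Male KO Tau 712 and 713 followed it in neocortical markers, at 692 and 683 CPM, against 211 to 435 CPM in the other 9 male libraries, and 713 had 4088 CPM of choroid plexus markers against 26.8 to 591 CPM in the other males.

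Promoters are shown for 2 members, since they carry the elements by which the cytosolic and the ER branch are told apart. Windows ran from 250 bases before to 50 after a RefSeq start, on GRCm38.p6, and 57 members had one. The Hspe1 window, chr1:55087898-55088197 on the plus strand, has in capitals its overlapping heat shock elements, and the Hspa5 window, chr2:34771840-34772139 on the plus strand, has its ER stress element in capitals.
Hspe1 promoter: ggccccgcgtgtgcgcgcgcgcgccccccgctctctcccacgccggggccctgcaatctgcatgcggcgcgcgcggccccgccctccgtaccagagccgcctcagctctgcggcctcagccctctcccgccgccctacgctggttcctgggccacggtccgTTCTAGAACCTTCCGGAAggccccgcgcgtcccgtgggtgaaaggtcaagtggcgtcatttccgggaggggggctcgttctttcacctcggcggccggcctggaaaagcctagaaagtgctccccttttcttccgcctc
Hspa5 promoter: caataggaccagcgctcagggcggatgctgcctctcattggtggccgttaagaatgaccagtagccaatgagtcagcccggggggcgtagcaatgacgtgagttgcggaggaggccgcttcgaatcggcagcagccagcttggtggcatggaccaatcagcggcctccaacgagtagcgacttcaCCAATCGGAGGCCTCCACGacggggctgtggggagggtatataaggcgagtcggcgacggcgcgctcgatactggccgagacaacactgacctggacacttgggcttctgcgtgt

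A heat shock element was searched as 3 alternating units GAA and TTC with 2 bases between them, in either orientation. It was found in 4 of 57 members, Hspe1, Hspd1, Hsph1 and Dnajb6, and in 0.662% of all 27025 genes with a window. The ER stress element, CCAAT and CCACG with 9 bases between them on either strand, was found in 2 members, Hspa5 and Dnajc3, and in 0.137% of all genes. Hspe1 and Hspd1 lie head to head on chromosome 1, and 285 bases of the Hspe1 window were also in a Hspd1 window.

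Levels between genes were compared as CPM per kb of exon. Hsp90ab1, the constitutive cytosolic HSP90, led with a median of 722 CPM per kb, followed by Hspa8, the constitutive cytosolic HSP70, at 241, and Hsp90aa1, the inducible HSP90, at 180 CPM per kb. The library ranges of Hsp90ab1 (535 to 845) and Hspa8 (161 to 259) did not overlap, while those of Hspa8 and Hsp90aa1 (133 to 221) did. Hspa5, the HSP70 of the ER, stood at 84.6 and Dnaja2, a cytosolic J-domain partner of Hspa8, at 83.9 CPM per kb, with overlapping ranges. Hspa1a and Hspa1b, the stress-inducible HSP70 genes, were low, at 2.14 and 2.19 CPM per kb. These neighbours share sequence, and 66.3% and 62.3% of their 50-base windows occur in other genes, so their reads may have been split. Such windows also made up 47.5% for Hsp90aa1 and 39.4% for Hspa8, against 3.44% for Hsp90ab1, which limits the comparison of their levels. Of all members, 61 had a median above 1 CPM per kb and 33 above 10.

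**Figure D1:**
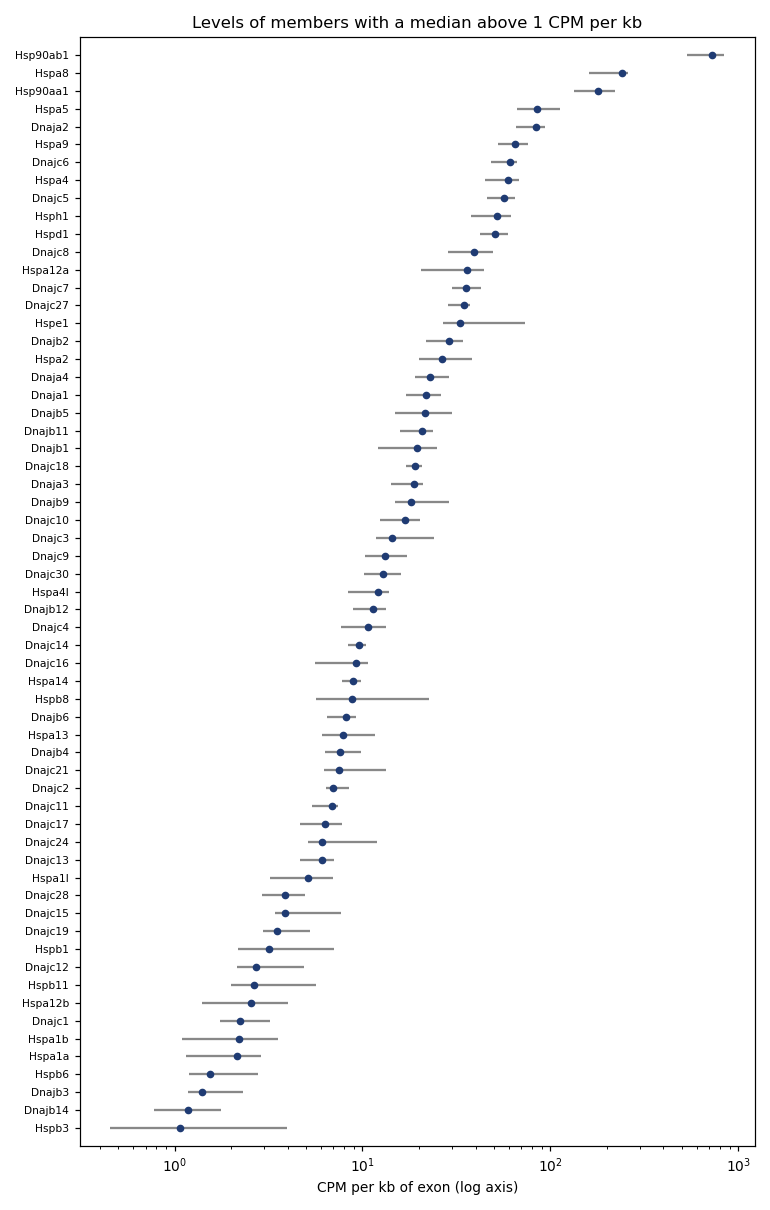
Median (points) and lowest to highest library (lines) of CPM per kb of exon, on a log axis, for the 61 members with a median above 1 CPM per kb over 17 libraries. Hsp90ab1 at 722, Hspa8 at 241 and Hsp90aa1 at 180 CPM per kb stand above the rest.

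The filter on low counts kept 63 members in every fit. The other 8 were not tested. Dnajc5g had no count, Dnajb8 had 4 counts and Dnajc5b 7 counts in all 17 libraries together, and Dnajc22, Dnajb7, Hspb7, Hspb9 and Hspb2 stayed at or under 0.568 CPM in every library. The median ratio of highest to lowest library was 1.69 over the members tested and 1.98 over all 15594 genes tested. The widest ratios among members with at least 10 counts in every library belonged to the small heat shock protein Hspb8 (4.00), to Hspa1b (3.24) and to the small heat shock protein Hspb1 (3.24), and the narrowest to Dnajc18 (1.23).

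The first question was whether Tau changed chaperone expression in male mice. In WT males, 0 of 63 members passed a false discovery rate (FDR) of 0.05 in edgeR's quasi-likelihood test, as did 0% of all genes, and DESeq2 and limma voom also called 0 members. At an unadjusted p under 0.05 there was 1 member, Dnajc24, beside 1.86% of all genes. Dnajc24, a J-domain protein of diphthamide synthesis, stood at 7.78, 7.44 and 7.52 CPM in WT PBS and 10.5, 9.04 and 8.37 CPM in WT Tau, groups that did not overlap. The members' median log2 fold change was 0.05, and that of all genes was -0.01.

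In KO males, Hspa12a had the second smallest p of all 15098 genes. Hspa12a encodes a distant HSP70 relative, at chr19:58795750-58943654 on the minus strand of GRCm38. It read 342, 334 and 344 CPM in WT PBS, 331, 334 and 333 in WT Tau, 409, 358 and 357 in KO PBS, and 250.3, 282 and 259 in KO Tau. All 3 KO Tau libraries were below all 9 other male libraries. Female KO Tau libraries read 264, 259.9 and 222 CPM and female WT Tau libraries 188 and 281 CPM, in ranges that overlapped each other. For Tau against PBS in KO males its log2 fold change was -0.55 ± 0.09 (SE), with an unadjusted p of 4.66e-05 and an FDR of 0.352 in edgeR, so it did not pass. The interaction of genotype and Tau was -0.50 ± 0.12 (SE, edgeR, unadjusted p = 0.00158, FDR = 0.996). Without both 711 and 752, edgeR gave an FDR of 0.0045 for Tau in KO males and 0.0259 for the interaction, in a fit that called 1577 and 1044 of all 15221 genes. In that fit neocortical markers summed to 257 and 298 CPM in the KO PBS libraries and 692 and 683 CPM in the KO Tau libraries, striatal markers to 64.5 and 86.6 against 157 and 139 CPM, and CA1 markers to 882 and 889 against 696 and 628 CPM. Their part in these calls was not tested. With only 711 left out, the estimate for Tau in KO males was -0.52 and the FDR 0.21.

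**Figure D2:**
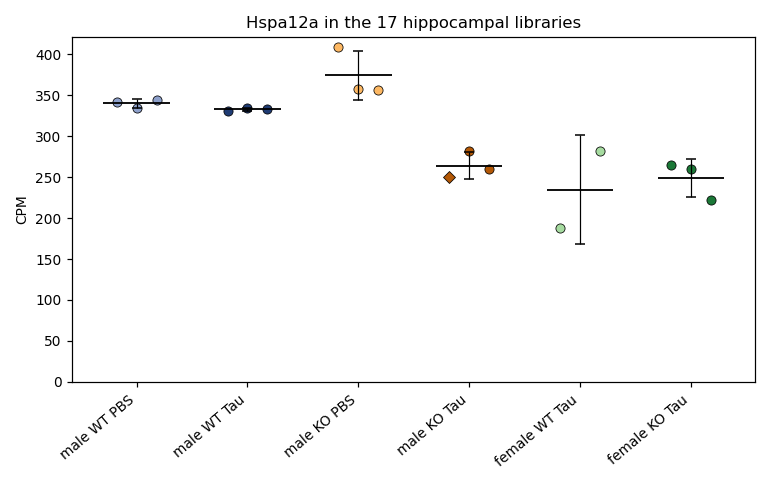
Hspa12a in CPM for each of the 17 libraries by group, with the group mean (line) and SD (bar) and the library male KO Tau 711 as a diamond. The 3 male KO Tau libraries, at 250.3 to 282 CPM, lie below the 9 other male libraries.

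For Tau in KO males, 0 members passed the FDR, beside 0% of all genes, and 5 had an unadjusted p under 0.05, beside 7.95% of all genes. All 5 were lower under Tau. Dnajc16, a J-domain protein of the ER membrane, read 67.5, 67.2 and 65.0 CPM in KO PBS and 47.7, 55.0 and 60.2 CPM in KO Tau, without overlap (log2 fold change -0.34 ± 0.10). The others were Dnajb14, Dnajc28 and Hspa4l. DESeq2 called 1 member, Hspa12a, a count that is not set beside the share of all genes. The fit in edgeR without 711 and 752 called 3, Hspa12a, Dnajb14 and Hspa2, beside 1577 of all 15221 genes. Without 711 alone, 3 members had an unadjusted p under 0.05 and 0 passed the FDR. In the heat-inducible set, which holds the cytosolic genes and the chaperonin pair Hspd1 and Hspe1, 11 of 12 members had a negative estimate in KO males, with a median of -0.17, but without 711 7 of 12 did, with a median of -0.03. In WT males 10 of 12 had a positive one, with a median of 0.09. Of all 15098 genes, 7525 had a negative estimate in KO males and 7198 a positive one in WT males. The estimate of Hspa8 in KO males was -0.19 ± 0.15 with all libraries and -0.02 ± 0.09 without 711, and that of Hsph1 was -0.29 ± 0.14 and -0.14 ± 0.10. None of the 12 passed the FDR in either genotype or in the interaction. All 4 genes of the synaptic vesicle and clathrin set, among them Dnajc5, Dnajc6 and Hspa8, had estimates from -0.19 to -0.15 in KO males and from -0.13 to -0.02 without 711, and none passed the FDR.

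**Figure D3:**
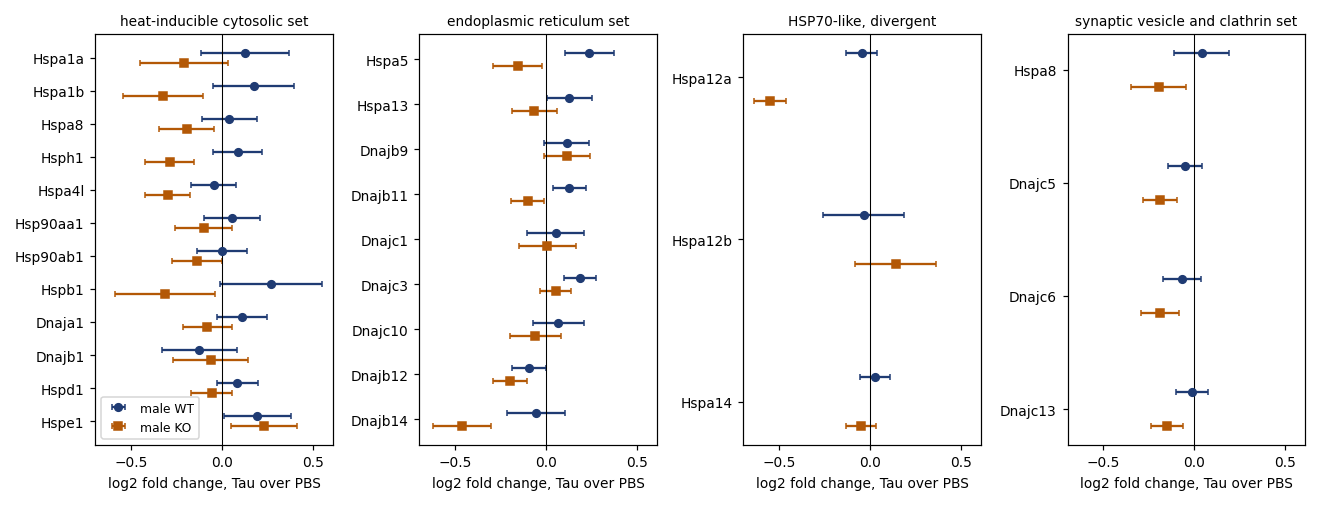
Log2 fold change of Tau over PBS with its SE (bars) in male WT (circles) and male KO (squares) mice for 4 member sets, from 1 edgeR fit of 12 libraries, 711 included. Hspa12a is at -0.55 in KO males, and none of the plotted members passed the FDR.

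Averaged over both genotypes, Tau gave 0 members at the FDR, beside 0% of all genes, and 5 members at an unadjusted p under 0.05, beside 5.38% of all genes. Hspa12a was at -0.30 ± 0.06, and DESeq2 and the fit without 711 and 752 called it. Neither call is set beside the share of all genes, so it does not set Hspa12a apart from other genes. For the interaction of genotype and Tau, 0 members passed the FDR, beside 0% of all genes, and Hspa12a alone had an unadjusted p under 0.05, beside 4.18% of all genes.

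The next question was whether loss of Acss2 changed these genes. In PBS males, 0 members passed the FDR in edgeR, DESeq2 or voom, beside 0.00662% of all genes. At an unadjusted p under 0.05 there were 6 members, all higher in KO, beside 4.42% of all genes. Of the 9 genes of the ER set, 3 were among them. Hspa5 read 282, 331 and 308 CPM in WT PBS and 433, 329.5 and 427 CPM in KO PBS (log2 fold change 0.42 ± 0.14, FDR 0.999 in edgeR). Its J-domain partner Dnajb11 read 56.0, 55.3 and 60.9 CPM in WT PBS and 68.2, 67.5 and 70.0 CPM in KO PBS, without overlap (0.31 ± 0.09). The WT PBS and KO PBS libraries of Hspa5 overlapped in library 752 alone. Dnajc3, a J-domain protein of the ER lumen that also inhibits the kinase of the ER stress response, was at 0.20 ± 0.09. Hspa1b read 5.15, 6.72 and 4.71 CPM in WT PBS and 9.94, 5.98 and 9.38 CPM in KO PBS (0.66 ± 0.22), with 752 again the low library. The remaining 2 were Hspa12a, at 0.19 ± 0.09, and Dnajc21, whose highest library, 752, had 64.1 CPM against 36.6 and 33.7 CPM in its group. Without 711 and 752 the estimate was 0.54 for Hspa5, 0.85 for Hspa1b and 0.17 for Dnajc21, and 0 members passed the FDR. The KO PBS libraries also serve as the control for Tau in KO males, so the higher estimates here and the lower ones there are not independent.

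The same contrast was made under Tau. Between KO and WT males, 0 of 63 members passed the FDR in edgeR or voom, beside 0.00662% of all genes, and 2 had an unadjusted p under 0.05, beside 4.71% of all genes. These were Hspa12a at -0.31 ± 0.09 and Dnajc4, a J-domain protein of mitochondria, at 0.25 ± 0.11. DESeq2 on the male libraries also called 0, and DESeq2 on only these groups without 711 called 3 members, Dnajb14, Dnajc21 and Hspa12a. That count is not set beside the share of all genes, so it does not set the members apart from other genes. Averaged over treatments, KO gave 0 members at the FDR, beside 0.00662% of all genes, and 6 at an unadjusted p under 0.05, beside 4.58% of all genes, led by Dnajb11 (0.20 ± 0.06).

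KO Tau males against WT PBS males gave 0 members at the FDR, beside 0.00662% of all genes, and 7 at an unadjusted p under 0.05, beside 6.33% of all genes. Hspa12a was at -0.36 ± 0.09, Dnajb5, a neuronal J-domain protein, at -0.40 ± 0.12, Dnajc3 at 0.26 ± 0.09 and Dnajb2, a J-domain protein with ubiquitin-binding motifs, at 0.29 ± 0.13. DESeq2 called 1 member, Hspa12a, and on only these groups without 711 it called 5, Dnajb2, Dnajb5, Dnajc21, Hspa12a and Hspa5. Neither DESeq2 count is set beside the share of all genes, so the same limit holds. In females under Tau, KO against WT gave 0 members at the FDR, beside 0.00649% of all genes, and 0 at an unadjusted p under 0.05, beside 2.89% of all genes, also 0 at the FDR in DESeq2 and voom. The sex by genotype interaction gave 0 members at the FDR, beside 0% of all genes, and 2 at an unadjusted p under 0.05, Dnajc4 and Dnajb14, beside 2.94% of all genes.

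Most calls came from the comparison of female and male mice under Tau. Of 63 members, 15 passed the FDR, a share of the same size as the 23.8% of all genes, and 29 had an unadjusted p under 0.05, beside 39.8% of all genes. Of the 15, 6 were higher and 9 lower in females. Female libraries also had more astrocyte, microglial and endothelial marker RNA, with endothelial sums of 270 to 365 CPM against 128 to 217 CPM in males without 711, microglial sums of 603 to 739.6 CPM against 386 to 559.6 CPM, and less of the immediate early genes, with 302 to 695 CPM against 785 to 1412 CPM. The part of these in the member differences was not tested, and in tissue fewer cells of a type and less RNA per cell cannot be told apart. Sex cannot be told apart from anything else that set the female libraries apart as a set.

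Among those higher in females was Hspb8, the small heat shock protein that works with Bag3 in selective autophagy. It read 14.6, 20.9 and 13.7 CPM for male WT Tau and 17.1, 15.1 and 20.0 for male KO Tau, against 37.6 and 28.1 in female WT Tau and 27.0, 29.0 and 44.0 in female KO Tau (log2 fold change 0.90 ± 0.15, FDR 0.00628 in edgeR). Dnajc3 read 73.7, 77.5 and 69.1 for male WT Tau, 80.6, 69.2 and 77.7 for male KO Tau, 123 and 103 in female WT Tau and 91.4, 101 and 115 CPM in female KO Tau (0.46 ± 0.08, FDR 0.00632 in edgeR). Hspb8 lies at chr5:116408491-116422864 on the minus strand and Dnajc3 at chr14:118937976-118981697 on the plus strand. For both genes all 5 female libraries lay above all 12 male ones. Hspa13, an HSP70 of the ER, was at 0.41 ± 0.08, Dnajc24 at 0.52 ± 0.12, the intraflagellar transport protein Hspb11 at 0.56 ± 0.18 and the mitochondrial co-chaperonin Hspe1 at 0.57 ± 0.19.

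Among those lower in females were Hsp90ab1 and Hspa8, while Hsp90aa1, at -0.21 ± 0.12, did not pass. Hsp90ab1 read 2272, 2353 and 2166 CPM for male WT Tau, 1862, 2391 and 2261 for male KO Tau, 1605 and 1849 in female WT Tau and 1697, 1825 and 1631 in female KO Tau (-0.43 ± 0.11, FDR 0.0226 in edgeR). Hspa8 read 1089, 1079.7 and 1015 CPM for male WT Tau and 711, 1112 and 1108 for male KO Tau, against 694 to 856 CPM in females (-0.40 ± 0.12). The other 7 were Hspa1a (-0.73 ± 0.20), Hspa1l, Hspa2, Dnajb5, Dnajc7, Dnajc11 and Dnajc30. Estimates in the heat-inducible set were negative for 10 of 12 members, with Hspe1 among the exceptions, and those in the ER set were positive for 6 of 9. All 5 cytosolic HSP70 genes had a negative estimate. Of the 5 Hspb genes tested, Hspb11 included, 4 had a positive one, among them Hspb1 at 0.48 ± 0.23, which did not pass. Cryab, a small heat shock protein outside the symbol rule, is not in this count. All 4 Dnaja genes had negative estimates, while the 25 Dnajc genes were split, 12 positive and 13 negative. None of these sign counts is set beside the split of all genes, so they do not set the members apart from other genes.

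The lowest male value of Hspa8, Hsp90ab1 and Hspa1a came from library 711. For 16 of 63 members (25.4%) the 5 female libraries did not overlap the 5 other male Tau libraries, beside 23.8% of all 15419 genes. For 14 of the 16, 711 lay beyond those males towards the females, and among all genes for 2860 of 3673 (77.9%). Its 71 members held 0.771% of its counts, against 0.896% to 1.01% in the other males and 0.782% to 0.865% in females. Without 711, 30 members passed the FDR, in a fit that called 40.7% of all genes. Without other libraries the count fell, to 4 without female WT Tau 331, to 6 without male KO Tau 713 or male WT Tau 773, and to 8 without male KO Tau 712 or male WT Tau 771 or 772. With 1 library left out, the calls among all genes also moved, from 628 to 6290. Hspb8 and Dnajc3 were called under all 16 alternatives. Hspa13, Dnajb5, Dnajc24 and Dnajc30 were called in 15, each missing without 331, and Hspa8 and Hspa2 in 5 each.

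**Figure D4:**
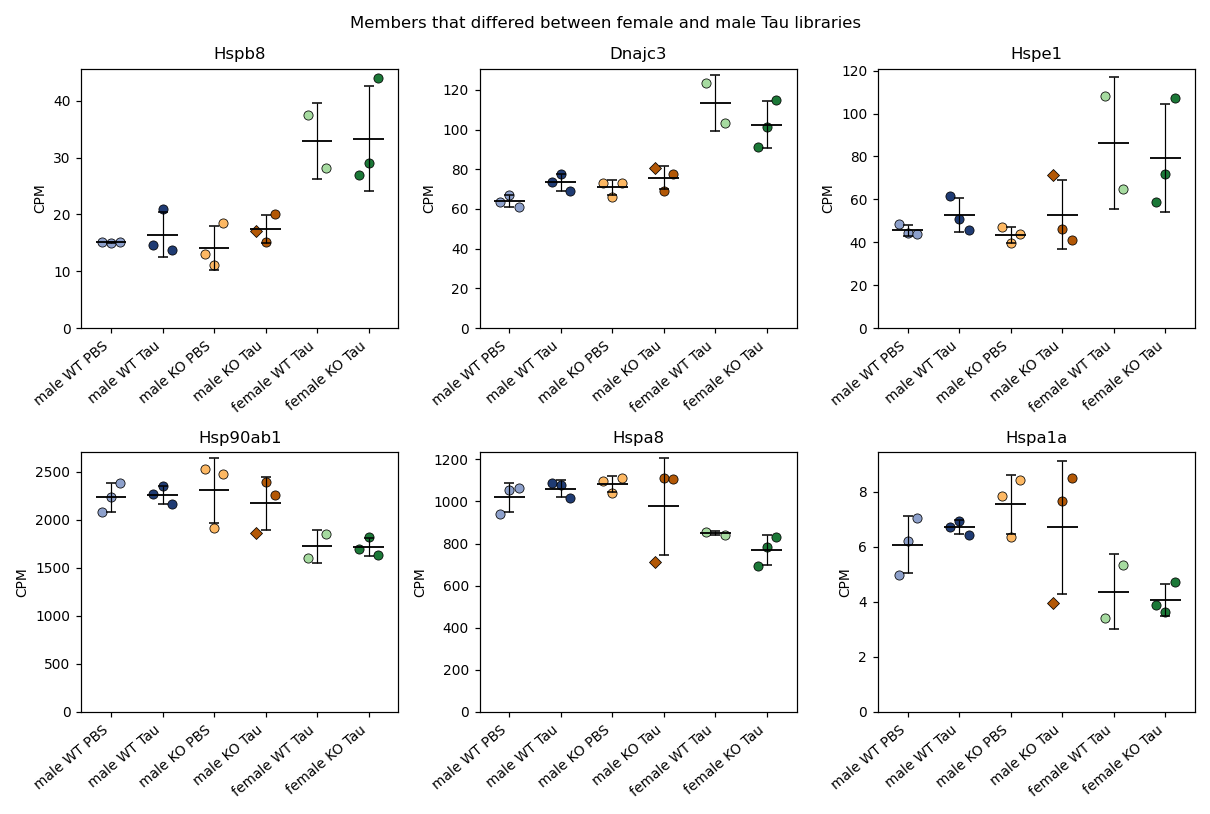
CPM of 6 members in each of the 17 libraries by group, with the group mean (line), SD (bar) and the library male KO Tau 711 as a diamond. Hspb8 and Dnajc3 are higher in all 5 female libraries than in all male ones, and Hspa8 in 711, at 711 CPM, lies within the female range of 694 to 856 CPM.

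Over all 6 groups in 1 test, 13 members passed the FDR, beside 19.0% of all genes, and 23 had an unadjusted p under 0.05, beside 34.2% of all genes. Dnajc3 had the smallest p (FDR 0.00213 in edgeR), followed by Hspb8, Dnajc24, Dnajb5 and Hspa12a (FDR 0.00943 in edgeR), then Dnajc11, Dnajc30, Hspa13, Dnajb12, Hspa1l, Hspa8, Hsp90ab1 and Hspe1. The count was 25 without 711, 8 without any of male WT PBS 791, 792 or 793 or male WT Tau 772, 7 without female KO Tau 324 or female WT Tau 331, and 6 without female KO Tau 325. With 1 library left out, the calls among all genes also moved, from 1664 to 4703.

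Pairs of members were followed across the 17 libraries as deviations from their group means, with permutation tests adjusted over 5 pairs. Hspa5 and Dnajb11, both of the ER, varied together (Pearson r = 0.859, permutation p = 0.00223, adjusted p = 0.0112; Spearman rho = 0.787, permutation p = 0.00314, adjusted p = 0.0157). Without the 2 libraries farthest from the median of Hspa5, female KO Tau 325 and 314, r was 0.693, with 324 left alone in its group. In the 12 male libraries r was 0.644 (permutation p = 0.0470, adjusted p = 0.0786). The relation was weaker in both settings, which held fewer libraries, and did not pass the adjusted threshold within males. Hsph1 and Hsp90aa1 gave r = 0.789 (permutation p = 0.0326, adjusted p = 0.0602; rho = 0.652, permutation p = 0.0250, adjusted p = 0.0417), which fell to 0.386 without 711 and 331. Hspa1b and Hsph1 gave r = 0.539 (permutation p = 0.0361, adjusted p = 0.0602; rho = 0.623, permutation p = 0.0243, adjusted p = 0.0417), and 0.541 without male KO PBS 751 and 753. Hspa1b and Dnajb1, a J-domain protein induced by heat, gave r = 0.009 (permutation p = 0.975, adjusted p = 0.975; rho = -0.20, permutation p = 0.444, adjusted p = 0.556), and 0.042 without the same libraries. Hspa1b and Hspa5, from the cytosolic and the ER branch, gave r = 0.060 (permutation p = 0.840, adjusted p = 0.975; rho = 0.115, permutation p = 0.729, adjusted p = 0.729), 0.753 within males and -0.21 without 751 and 753. Leaving out 751 and 753 left 752 alone in male KO PBS, and leaving out 331 left 341 alone in female WT Tau. A library alone in its group has no deviation, so these values do not show what the libraries left out contributed alone.

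Hspe1 and Hspd1, the mitochondrial chaperonin pair that shares the promoter shown above, did not keep a fixed ratio. Hspe1 was 0.291 to 0.424 of Hspd1 in CPM in the 11 male libraries other than 711, 0.639 in 711 and 0.496 to 0.773 in the 5 female libraries. Hspe1 ran from 39.5 to 108 CPM and Hspd1 from 111 to 158 CPM. Other genes, Hspe1-ps2 and Hspd1-ps3 among them, hold 50-base windows of both, 18.4% for Hspe1 and 39.7% for Hspd1.

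**Figure D5:**
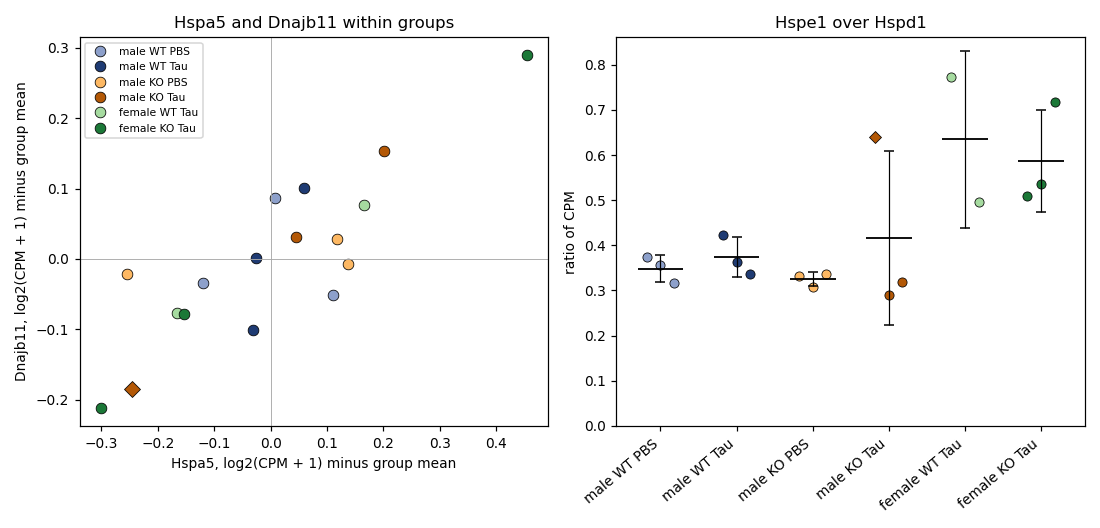
Left, Hspa5 against Dnajb11 as log2(CPM + 1) minus the group mean in 17 libraries (r = 0.859), and right, the ratio of Hspe1 to Hspd1 CPM by group with mean (line) and SD (bar), with male KO Tau 711 as a diamond. The ratio is 0.291 to 0.424 in the other males and higher in 711 and in all female libraries.

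Of 46 other genes of the chaperone system, 0 passed the FDR in any comparison within males. Between the sexes under Tau 8 of the 46 passed, beside 23.8% of all genes. Hsf1 was at -0.28 ± 0.08 (FDR 0.0286 in edgeR) and Bag6, a cytosolic quality control factor, at -0.45 ± 0.09, while Fkbp5, an HSP90 co-chaperone induced by glucocorticoids, was at 0.59 ± 0.14. Hsf2 (-0.04 ± 0.09), Hsbp1 (0.14 ± 0.10), Bag3 (-0.06 ± 0.12), Cryab (-0.23 ± 0.18) and the ER HSP90 gene Hsp90b1 (0.01 ± 0.11) did not pass, and the sign of Hsf2, Bag3 and Hsp90b1 changed in some alternatives. For Tau in WT males the lowest unadjusted p belonged to Cryab, a small heat shock protein of glia, at 67.8, 97.2 and 68.0 CPM in WT PBS and 104, 111 and 102 CPM in WT Tau (0.43 ± 0.19, FDR 1.00 in edgeR). Oligodendrocyte markers summed to 3244, 4907 and 3033 CPM in the same WT PBS libraries and 5326, 5877 and 4479 CPM in the same WT Tau libraries, and their part in this value was not tested.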

How the data were processed

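Poly(A) RNA of 17 libraries was counted by the authors. The deposited table holds whole, unnormalized counts by gene symbol; the labels and methods give STAR 2.5.2, mm10 (GRCm38), SAMtools 1.1 and reverse-strand counting in HTSeq 0.9.1, with an annotation release not given in the sources used here. Counting by strand was applied to a kit that the labels do not call directional, so antisense overlaps are uncertain. Near-identical copies may split or share reads.

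Counts were tested in R 4.3.3 with edgeR 4.0.16 (quasi-likelihood test, TMM, filterByExpr with minimum count 10 and total 15, Benjamini-Hochberg FDR of 0.05), in fits of 12 male libraries, 11 Tau libraries and all 17. Alternatives were DESeq2 1.42.0, limma 3.58.1 voom, RLE factors, no filter, other sets of libraries and each replicate left out. Relations used log2(CPM + 1) and 100000 permutations. The fits were tested on simulated data. Labels did not state that libraries were separate animals, so p-values measure the spread between libraries. Members, lists and tests were chosen with earlier results of these data known. Named genes were a preset panel, all called members, up to 3 higher and 3 lower per comparison without overlap, and extremes of level and range; Dnajb14, Dnajc21, Dnajc28 and the 2 promoters shown were picked after their values were seen. Protein sequences were not analysed here.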

Additional observations from a re-analysis of the deposited data

How the results depend on the processing

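Among the named genes, 4 estimates that passed no threshold changed sign. Leaving out 1 replicate, Hspa8 under Tau in WT males ran from -0.024 to 0.077, and between the sexes Hsf2 ran from -0.079 to 0.014, Bag3 from -0.11 to 0.022 and Hsp90b1 from -0.056 to 0.072, with Hsp90b1 at -0.043 in voom. The correlation of Hspa1b and Hspa5 went from 0.060 to -0.21 without the 2 libraries farthest from the median. That of Hspa5 and Dnajb11 fell short of the adjusted threshold in males (0.644) and was 0.693 without 2 libraries. For both pairs of genes, leaving out 2 libraries left a single library in their group. No paired analysis was possible because the groups share no replicate number. DESeq2 called 1 member for Tau in KO males, for KO Tau against WT PBS (also on only those groups) and for Tau averaged over genotypes, and 22 over the 6 groups. Voom called 30 members between the sexes and 35 over the 6 groups. Leaving out 1 replicate, the count of members ran from 4 to 30 between the sexes, where calls among all genes ran from 628 to 6290. Over the 6 groups it ran from 6 to 25, where calls among all genes ran from 1664 to 4703. DESeq2 on only the groups compared without 711 called 3 members for KO against WT under Tau and 5 for KO Tau against WT PBS. These DESeq2 and voom counts are not set beside the shares of all genes called, so they do not set the members apart from other genes. Chosen after seeing the data, edgeR without 711 and 752 called 3 members for Tau in KO males, 1 for KO against WT under Tau, 1 for KO Tau against WT PBS, 2 for the interaction, 1 for Tau averaged over genotypes and 26 over the 6 groups. Of the 15221 genes in its male fit, it called 1577 for Tau in KO males, 701 for KO against WT under Tau and 1044 for the interaction. Its counts for KO Tau against WT PBS, for Tau averaged over genotypes and over the 6 groups are not set beside all genes. Those counts therefore do not set the members apart either. The cause of these changes was not tested. Depth limits members under 1 CPM, where 3 counts equal 0.134 to 0.212 CPM, an error of counting alone.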
